A study of Mus musculus with 6 samples.

Results

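The mitochondrial ribosomal proteins were taken as every array probe whose annotated gene symbol begins with Mrpl or Mrps followed by a number. The rule found 76 genes, of 22351 gene symbols on the array, read by 98 of its 55681 probes on 125 spots. The study hybridized total RNA from a mouse microvascular endothelial cell line, 1G11, to 6 single-color Agilent arrays, 3 from 1G11-mock cells without SOD3 overexpression and 3 from 1G11-SOD3 cells that overexpress superoxide dismutase-3 (SOD3), an extracellular enzyme that removes superoxide. Both lines carry the strain label C57BL/6NCrLBR and spent 6 h in the conditioned medium of murine N202.1A mammary cancer cells, so that medium is common to all arrays, and no array of unexposed cells was analyzed here. The replicates are biological replicates of 1 mock and 1 SOD3 line, and nothing in these data tells an effect of SOD3 from another difference between these lines.

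Mitochondrial ribosomes translate the few proteins encoded by mitochondrial DNA, all of them subunits of the respiratory chain and ATP synthase. Their RNA comes from mitochondrial DNA, whereas every protein of the large (Mrpl) and small (Mrps) subunit is encoded in the nucleus, made in the cytosol and imported. Some of these proteins have bacterial relatives and others were added in the mitochondrial lineage. In endothelial cells, which rely largely on glycolysis for ATP, mitochondria are also known as a source of reactive oxygen species and of signals. The symbols do not map perfectly to subunits, since Mrps30 and Mrps18a sit in the large subunit and Mrps36 is now regarded as a component of the 2-oxoglutarate dehydrogenase complex. With these placements the members comprised 49 genes of the large subunit, 26 of the small subunit and Mrps36.

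Nuclear genes for mitochondrial ribosomal proteins are known to have GC-rich promoters with sites for NRF-1 and ETS factors. The RefSeq promoter table on GRCm38.p6, which covers 250 bases before and 50 bases after each transcription start, held a window for 67 of the 76 genes. Motifs were searched on both strands. The NRF-1 type sequence (GCGCA and GCGC with any 1 base between them) was found in 12 of the 67 windows (17.9%), against 4.78% of all 27025 promoters in the table. The ETS type sequence CCGGAAGT was found in 11 windows (16.4%), against 4% of all promoters. The YY1 type sequence (AAGATGG followed directly by CGG) was found in 5 windows (7.46%), against 0.899% of all promoters. At least 1 of these 3 motifs was present in 26 of the 67 windows (38.8%), against 9.11% of all promoters. The TATA type sequence TATAAA was found in 4 windows (5.97%), against 14.2% of all promoters. Stretches of 40 bases upstream of the start are shown for genes whose promoters hold one of these motifs, most of them described further on, 5′ to 3′ on the gene's strand with the motif, in either orientation, in capitals. The NRF-1 type motif is marked in the first 5 and the ETS type motif in the last 4.
Mrpl32 (chr13:14613100-14613139, minus strand): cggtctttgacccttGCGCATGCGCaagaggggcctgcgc
Mrpl45 (chr11:97315663-97315702, plus strand): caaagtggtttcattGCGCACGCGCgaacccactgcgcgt
Mrpl12 (chr11:120484541-120484580, plus strand): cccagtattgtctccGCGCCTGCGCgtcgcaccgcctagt
Mrpl44 (chr1:79775968-79776007, plus strand): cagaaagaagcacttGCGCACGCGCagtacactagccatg
Mrpl9 (chr3:94443293-94443332, plus strand): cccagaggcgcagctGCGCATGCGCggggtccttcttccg
Mrpl3 (chr9:105053228-105053267, plus strand): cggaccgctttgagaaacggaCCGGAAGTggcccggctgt
Mrps22 (chr9:98601680-98601719, minus strand): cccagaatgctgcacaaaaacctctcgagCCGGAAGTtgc
Mrps26 (chr2:130563717-130563756, plus strand): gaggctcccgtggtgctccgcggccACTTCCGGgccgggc
Mrpl43 (chr19:45006443-45006482, minus strand): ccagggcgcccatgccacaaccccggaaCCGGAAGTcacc

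Among the windows in the table, Mrpl46 (large subunit) and Mrps11 (small subunit) were the one member pair with starts within 20000 bases of each other. They lie head to head on chromosome 7 of GRCm38.p6, Mrpl46 on the minus strand from 78783089 and Mrps11 on the plus strand from 78783131. The 41 bases between the starts (chr7:78783090-78783130, plus strand) are shown because both genes are read outward from them.
Mrpl46 and Mrps11, between the starts: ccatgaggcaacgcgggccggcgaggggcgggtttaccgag
The pair had near-equal log2 fold changes of 0.28 for Mrpl46 and 0.27 for Mrps11, and of 0.45 and 0.41 after the adjustment for position described below. None passed the test. Members lay close together as a whole, with adjusted quartiles of 0.18 and 0.48 for those outside the middle of the array. Whether the pair moved together was not tested.

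Where a spot was printed bears on every value. Spots in the central part of the array, rows 129 to 256 and columns 55 to 109, called the middle here, read dim on the arrays of 1G11-mock cells. Of the 125 member spots, 7 lay there, so 91 probes had every spot outside the middle, 6 had their one spot inside it and a probe of Mrpl50 had copies in both places. All 6 arrays sat on 1 slide, the mock arrays in one row of the slide and the SOD3 arrays in the other, so slide row and cell line cannot be told apart. The values used first, called plain values here, are log2 intensities after background correction and quantile normalization. The position-adjusted values had, in addition, a running median of the surrounding spots removed from each array. A probe was called at more than 2-fold and a limma adjusted p under 0.05 over all probes.

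As a check of the labels, Sod3 read 13.61, 12.66 and 9.86 on the mock arrays and 16.37, 16.30 and 16.26 on the SOD3 arrays in log2 intensity, from 1 spot that itself lies in the middle. Of 12 endothelial marker genes, 4 (Eng, Esam, Kdr and Vwf) had a probe well above background on all 6 arrays, whereas Cdh5, which encodes VE-cadherin, and Emcn, Erg, Tek and Tie1 had none on any array. No gene of 4 epithelial markers was well above background on all arrays, while 1 of 3 leukocyte markers (Cd3e) and 2 of 4 fibroblast or mural markers (Dcn and Pdgfra) were. Pdgfrb, another mural marker, was called higher in 1G11-SOD3 (log2 fold change 2.39, adjusted p = 3.60e-04, limma), while Rgs5, also mural, was not well above background on any array. Of the endothelial markers, Vwf was called lower (-1.65, adjusted p = 0.00342, limma) and Egfl7 higher (1.82, adjusted p = 0.0175, limma), and Eng had -1.05 without overlap between the lines (adjusted p = 0.0835, limma). After the adjustment for position Pdgfrb stayed called (2.35) and the Vwf (-1.20) and Egfl7 (0.87) calls were lost. The part of these markers in the results below was not tested. Between 34.2% and 36.0% of spots were well above background on the mock arrays and between 38.4% and 43.8% on the SOD3 arrays.

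Mitochondrial ribosomal protein genes were broadly expressed in both lines. Of the 98 probes, 94 were well above background on all 6 arrays, covering 75 of the 76 genes, and no member spot was saturated. Mrpl21 was the exception, with its single probe not well above background on any array, so no fold change is given for it. Of the other 3 probes, one of Mrpl41 was well above background on no mock array and 2 SOD3 arrays, and one each of Mrpl47 and Mrpl50 on 2 mock arrays and all SOD3 arrays. For that probe of Mrpl41 the SOD3 mean did not exceed the lowest level that counts as above background on the mock arrays, so it has no fold change either.

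Outside the middle, 2 of 91 member probes were called, both higher in 1G11-SOD3, and none lower. Over all 49236 probes outside the middle, 0.644% were called higher and 1.18% lower. Among the 15102 of these well above background on all 6 arrays, as 88 of the 91 were, 1.23% were called higher and 3.26% lower. At an unadjusted p under 0.05 (limma), 12 member probes were higher and 4 lower, against 4.69% and 8.02% of all probes outside. Among the 15102 these shares were 7.05% and 17.3%. Mrpl32 and Mrpl33, the called genes, encode large subunit proteins with bacterial relatives, and Mrpl32 is known as a protein that must be trimmed in mitochondria before it is assembled.

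Mrpl32 (probe at chromosome 13, 14702894 to 14702953, in the array annotation, whose build is not given) had log2 intensities of 11.15, 11.18 and 9.72 in 1G11-mock and 12.46, 12.44 and 12.17 in 1G11-SOD3. Mock replicate 3 was the lowest, and the groups did not overlap. The log2 fold change was 1.67 ± 0.36 (SE, n = 3 per line, adjusted p = 0.0295 by limma). Mrpl33 (chromosome 5, 31924925 to 31924984) had 15.62, 15.30 and 15.11 in 1G11-mock and 16.55, 16.33 and 16.18 in 1G11-SOD3, again without overlap. Its log2 fold change was 1.01 ± 0.23 (SE, n = 3 per line, adjusted p = 0.0421 by limma), just past the 2-fold limit. Both spots border the middle, Mrpl32 at row 119 and column 78 and Mrpl33 at row 259 and column 104. After the adjustment for position the differences were 0.56 ± 0.22 for Mrpl32 and 0.53 ± 0.22 for Mrpl33 (SE), with limma adjusted p of 0.186 and 0.205, so both calls were lost. Leaving out single arrays also ended them: Mrpl32 stayed called without mock replicate 1 or mock replicate 3 (1.19 without the latter), and Mrpl33 only without mock replicate 1.

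**Figure D1:**
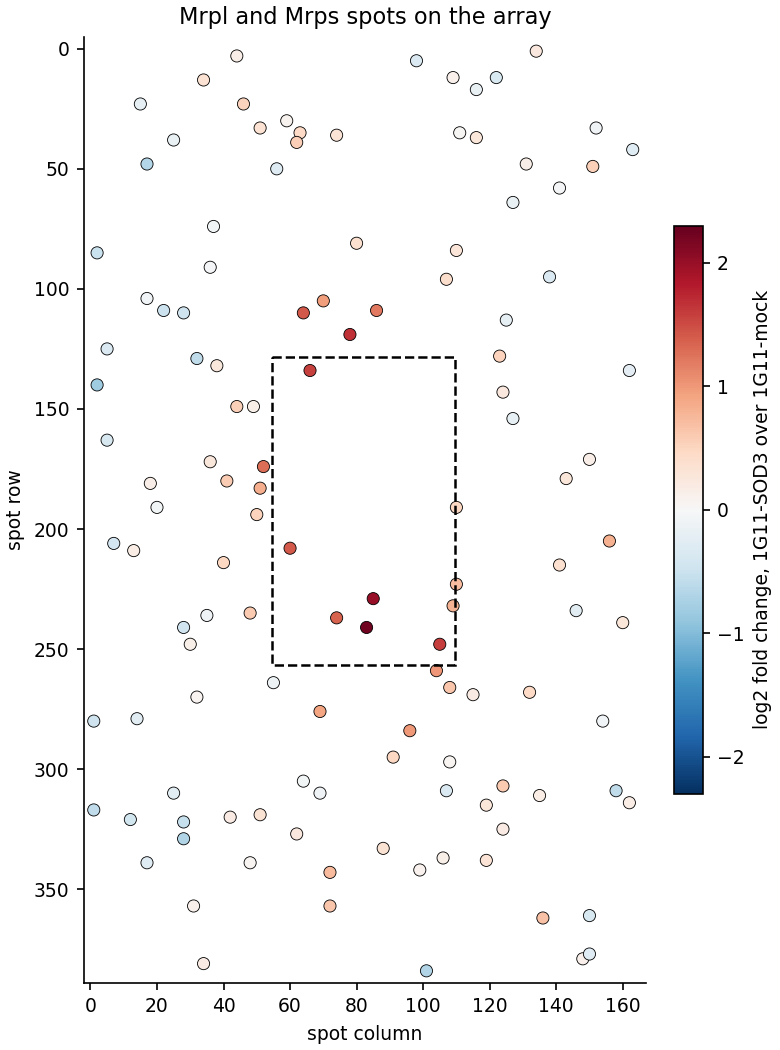
Each circle is a member spot at its row and column on the array, colored by its log2 fold change on plain values, and the dashed box is the middle (rows 129 to 256, columns 55 to 109). The strongest increases sit inside or just around the box, among them Mrpl32 at row 119 and Mrpl33 at row 259; the lowest value outside, Mrps9, lies at row 140 and column 2.

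**Figure D2:**
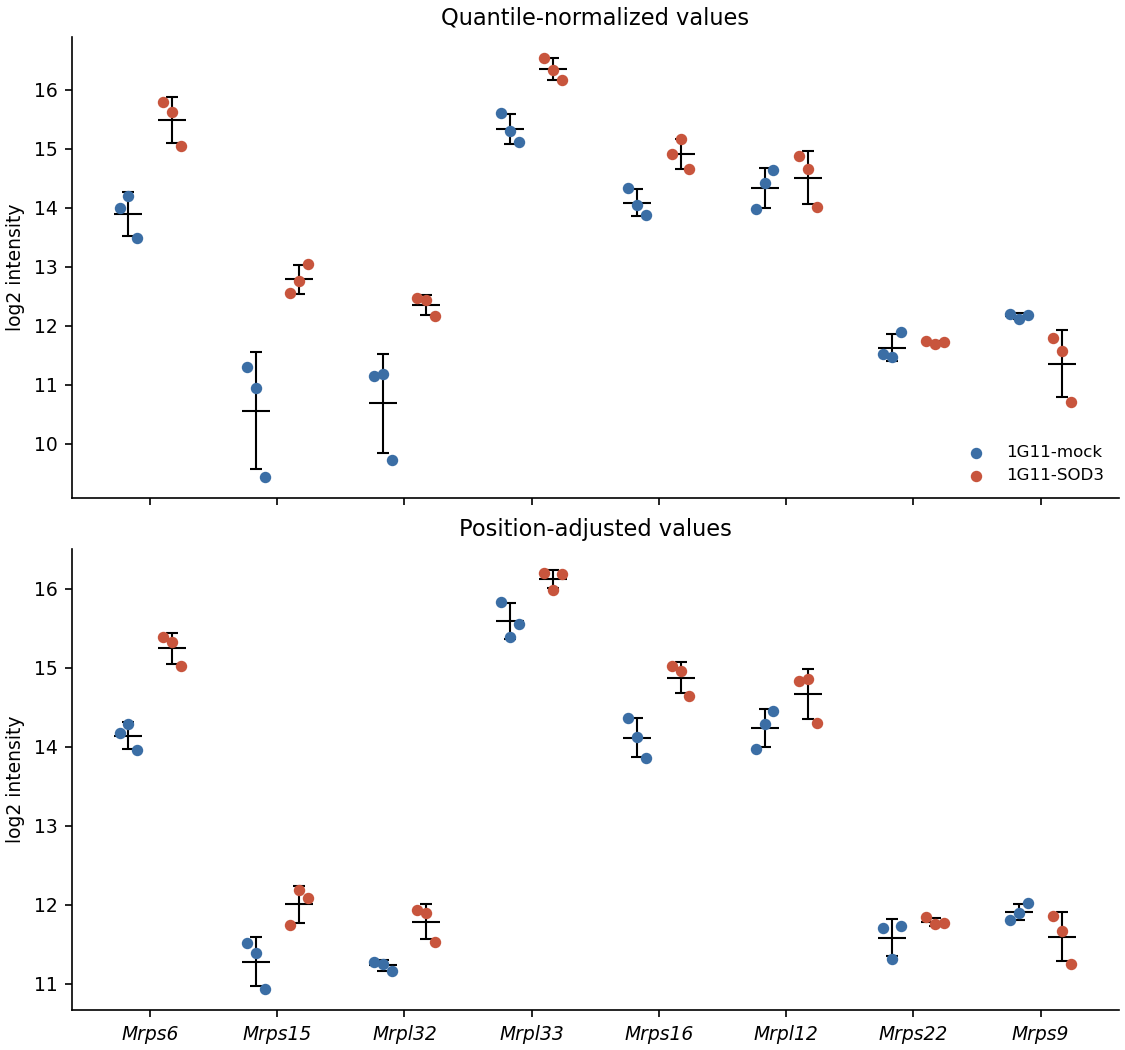
Log2 intensities of 8 member probes on the 6 arrays, plain above and position-adjusted below; points are arrays, bars the mean and SD of 3 arrays per line. Mrps6 and Mrps15 are probes of the middle, and mock replicate 3 of Mrps15 (9.43) and Mrpl32 (9.72) moved toward the others after adjustment.

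The next largest increases outside the middle without overlap between the lines were those of Mrpl36, Mrps12 and Mrpl45. Mrpl36, a short protein of the large subunit, read 12.40, 11.65 and 10.75 in 1G11-mock and 12.97, 13.15 and 12.95 in 1G11-SOD3. Mrps12, which lies at the decoding center of the small subunit, read 14.06, 13.81 and 12.49 against 14.91, 14.66 and 14.65. Mrpl45, located by the exit tunnel where the large subunit meets the inner membrane, read 12.47, 12.25 and 10.90 against 13.11, 13.26 and 12.90. In all 3 mock replicate 3 was the lowest. The log2 fold changes were 1.42 for Mrpl36, 1.29 for Mrps12 and 1.21 for Mrpl45, with limma adjusted p of 0.0565, 0.0932 and 0.118. Mrpl36 was also called in the authors' deposited values (adjusted p = 0.0486, limma) and with dim probes left out (adjusted p = 0.0448, limma). With the replicate number as a block, all 3 passed (adjusted p of 0.0223, 0.0305 and 0.0348, limma), which brought the called probes outside the middle to 5 higher and 0 lower, against 0.916% and 1.6% of all probes outside. Among probes there well above background on all arrays the shares were 1.85% and 4.34%. The position-adjusted differences of Mrpl36, Mrps12 and Mrpl45 were 0.81, 0.55 and 0.30, and none passed, with or without the block.

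No member probe fell by the test. The 5 largest decreases without overlap between the lines were those of Mrps9 (-0.81), Mrpl38 (-0.59), Mrpl43 (-0.53), Mrpl35 (-0.48) and Mrps14 (-0.47), with limma adjusted p between 0.199 and 0.429. Mrps9, a small subunit protein with bacterial relatives, read 12.20, 12.11 and 12.19 in 1G11-mock and 11.79, 11.57 and 10.71 in 1G11-SOD3. Mrpl43, added to the large subunit in mitochondria, read 14.94, 14.97 and 15.47 against 14.53, 14.56 and 14.69. After position adjustment Mrps9 and Mrpl43 were still below 0 (-0.31 and -0.07), while Mrpl38 (0.12), Mrpl35 (0.42) and Mrps14 (0.20) were above it.

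As a whole, the 91 probes leaned upward by a small amount; their counts include the fitted values of Mrpl21 and of the dim Mrpl41 probe. The median log2 fold change was 0.18 on plain values and 61 of 91 probes were above 0 (67%), against 43.9% of all probes outside the middle. After position adjustment the median was 0.34 and 79 of 91 probes were above 0 (86.8%), against 61.8% of all probes outside. Of the 88 member probes well above background on all arrays, 60 were above 0 on plain values (68.2%), against 35.6% of all such probes outside. After position adjustment 78 of the 88 were above 0 (88.6%), against 57.9%. The 88 member probes that were well above background on all arrays had a median of 0.18, against -0.17 for the 15102 such probes of all genes outside the middle, and of 0.34 against 0.07 after position adjustment. The gap between these medians was 0.35 on plain values, 0.27 after position adjustment, 0.36 with the scanner's processed signal and 0.43 with scaling to the 75th percentile. Leaving out 1 array at a time gave gaps from 0.30 to 0.38. No test was run on the list, since its members were chosen by name with results of these data known.

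Separation between the lines showed the same lean. On plain values all SOD3 arrays were above all mock arrays for 15 of 91 probes (16.5%), against 8.23% of all probes outside the middle, and below them for 6 (6.59%), against 11.4%. Among the 15102 probes of all genes well above background on all arrays, the shares were 7.99% and 20.8%. On position-adjusted values 39 of 91 probes (42.9%) were separated upward, against 18.9%, and none downward, against 6.67%. For those 15102 probes the shares were 17.1% and 11%. None of the 91 was called on position-adjusted values by limma, against 1.01% of all probes outside called higher and 0.63% lower. Of the 15102, 1.11% were called higher and 1.46% lower. Of the 91, 15 had an unadjusted p under 0.05 (limma), all of them higher, against 12.9% of all probes higher and 4.76% lower. These shares were 9.82% and 7.1% of the 15102. The 95% intervals of 52 of 91 plain differences (57.1%) lay wholly within 2-fold in either direction, against 73.9% of all probes outside, and of 67 of 91 position-adjusted differences (73.6%), against 59.9%. Among probes well above background on all arrays, the plain share was 55.7% of the 88 members, near the 57.6% of the 15102. After adjustment these shares were 72.7% and 68.3%. The median half-width of the members' intervals was 0.57 in log2 on plain values and 0.52 after adjustment.

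The array medians of the 88 bright member probes were 12.83, 12.82 and 13.10 in 1G11-mock and 12.99, 13.22 and 13.18 in 1G11-SOD3 on plain values, so mock replicate 3 lay between the SOD3 arrays. Position-adjusted, they were 12.74, 12.66 and 12.90 against 13.14, 13.14 and 13.13, and the lines did not overlap. Intensity moved with the fold change to a small degree. When the 15102 bright probes outside the middle were divided by mean intensity into 4 bins of near-equal size, 41 of the 88 member probes fell in the brightest bin, where the median of all probes was -0.09 and that of members 0.24. In the next brightest bin, with 30 members, the medians were -0.18 and 0.23. The 6 members in the dimmest bin had a median of -0.25, against -0.21 for all probes there. The position-adjusted medians of members were above those of all probes in each bin, from 0.30 to 0.36 against -0.01 to 0.21.

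**Figure D3:**
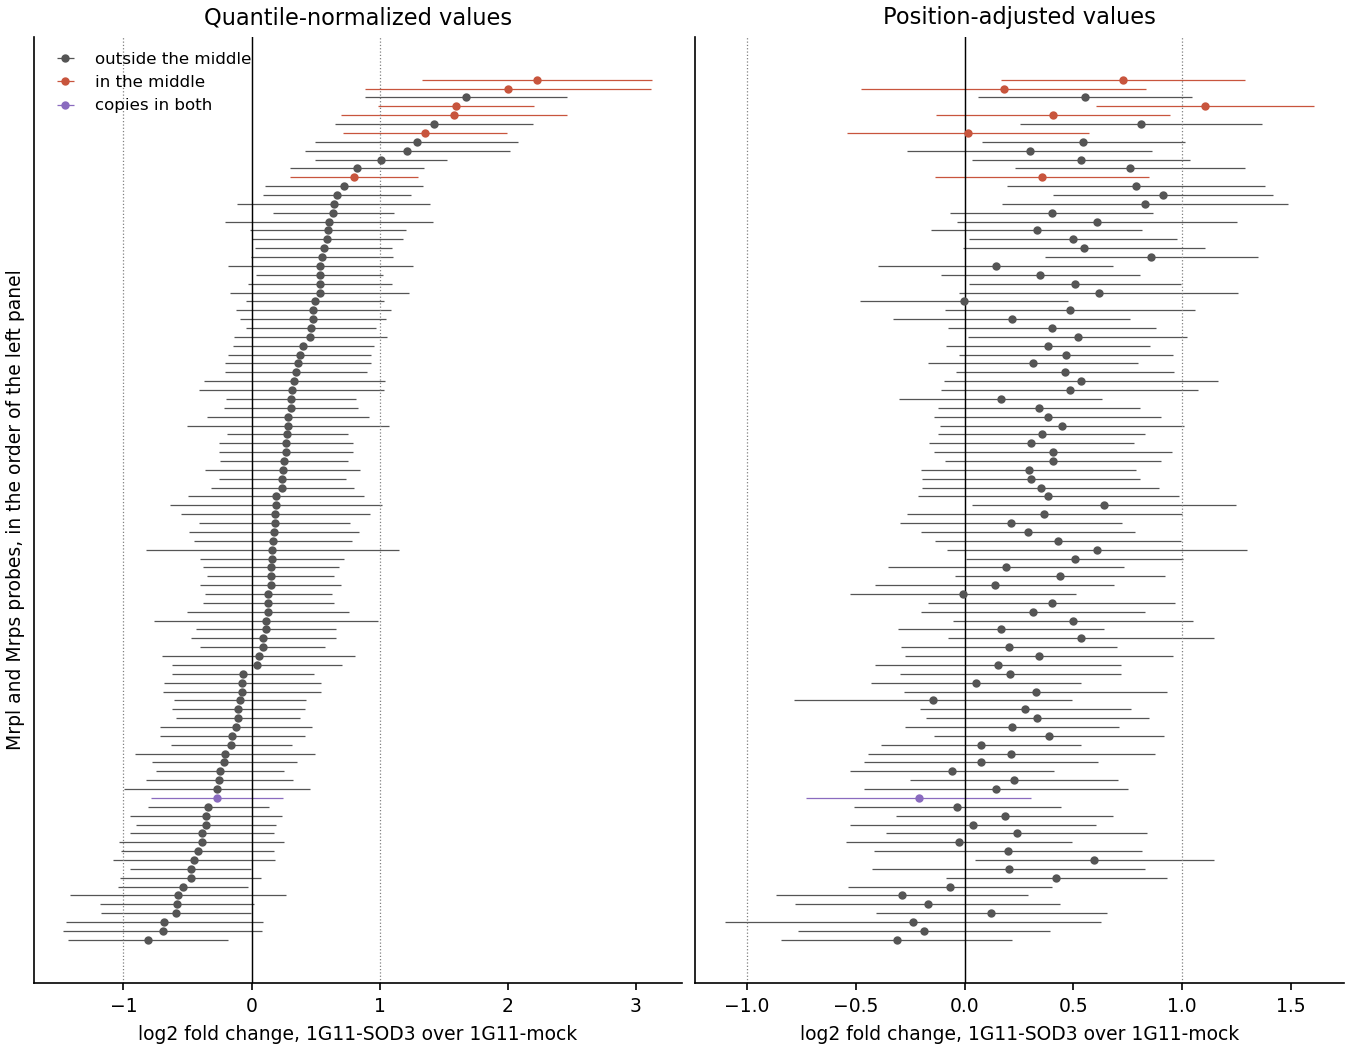
Log2 fold change (point) and 95% limma interval (line) of each of the 98 member probes, on plain values (left) and position-adjusted values (right), both in the order of the left panel; dotted lines mark 2-fold. The spread among member probes narrowed after adjustment, from an SD of 0.47 to 0.25 over the 91 probes outside the middle, around a median of 0.34. Over all 49236 probes outside, the SD went from 0.42 to 0.46. Over the 15102 of these well above background on all arrays, it went from 0.55 to 0.48.

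Both subunits showed this to a like extent. The 57 probes of the large subunit outside the middle had a median of 0.18, with 37 above 0, and the 32 probes of the small subunit a median of 0.16, with 22 above 0. Position-adjusted, the medians were 0.33 and 0.34, with 48 of 57 and 29 of 32 probes above 0. Proteins with bacterial relatives had position-adjusted medians of 0.35 in the large subunit (33 probes, from -0.29 to 0.83) and 0.40 in the small subunit (18 probes, from -0.31 to 0.79). Mitochondria-specific proteins had 0.29 in the large subunit (24 probes, from -0.07 to 0.91) and 0.26 in the small subunit (14 probes, from -0.17 to 0.86). The differences between these groups were not tested. Outside the middle, the 2 probes called on plain values, Mrpl32 and Mrpl33, were among the 33 bacterial-type probes of the large subunit. The other groups had no call there, but groups this small would hold few at the shares of all probes outside (0.644% higher, 1.18% lower). With position adjusted for, no group kept a call, against shares of 1.01% and 0.63%. In the middle, 11.6% of all probes were called higher on plain values. The called members there were Mrps15 and Mrps6, bacterial-type proteins of the small subunit, and Mrpl50, a mitochondria-specific protein of the large subunit. Mrps36, not a ribosomal protein, was read by 2 probes with plain differences of 0.19 and 0.40.

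Of the stalk of the large subunit, which recruits translation factors, Mrpl12 read 13.98, 14.42 and 14.64 in 1G11-mock and 14.87, 14.65 and 14.02 in 1G11-SOD3. The lines overlapped and the log2 fold change was 0.17 ± 0.28 (SE). Mrpl10, the protein to which Mrpl12 binds, had differences of -0.21 and -0.68 on its 2 probes, and Mrpl11 at the stalk base had 0.46 ± 0.23 (SE). None of the 3 passed the test (limma adjusted p from 0.403 to 0.842). The position-adjusted differences were 0.43 for Mrpl12, 0.40 for Mrpl11, and 0.22 and -0.24 for Mrpl10.

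Several members are known from inherited disorders of mitochondrial translation. Among those given here, Mrps16 had the largest difference on plain values. It read 14.33, 14.05 and 13.88 in 1G11-mock and 14.91, 15.17 and 14.65 in 1G11-SOD3, without overlap. Its log2 fold change was 0.83 ± 0.24 (SE, adjusted p = 0.104 by limma) and changed little with position adjustment (0.76). Mrps7 had 0.31 and 0.72 on its 2 probes, Mrps34 0.35, Mrpl3 0.18, Mrps22 0.09 and Mrpl44 -0.10, and each of these pairs of lines overlapped. Position-adjusted, these 5 genes were all above 0, between 0.20 and 0.79, and none passed. The value of 0.79, from a probe of Mrps7, was above that of Mrps16.

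The largest position-adjusted differences outside the middle were those of Mrpl40 and Mrps25, which were picked out after their values were seen. Mrpl40 read 12.34, 11.93 and 12.14 in 1G11-mock and 13.20, 12.86 and 13.08 in 1G11-SOD3 on that scale, a difference of 0.91 (limma adjusted p = 0.0621). Mrps25 read 13.58, 13.55 and 13.88 against 14.65, 14.55 and 14.39, a difference of 0.86 (limma adjusted p = 0.0677). The other probe of each gene gave 0.51 for Mrpl40 and 0.04 for Mrps25. With the processed signal, one probe each of Mrpl40 (1.36) and Mrps25 (1.12) and that of Mrpl32 (1.03) were called higher, and Mrpl21, which was not well above background on any array, lower, against 1.36% of all probes outside called higher and 14.6% lower. Among probes outside well above background on all arrays the shares were 1.97% and 3.32%.

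The fold changes of members followed their surroundings. For each probe, the local difference is the running median of nearby spots on the SOD3 arrays minus that on the mock arrays. Over the 88 bright member probes outside the middle it ranged from -0.25 to 1.66 and correlated with the plain log2 fold change at r = 0.85, and with the position-adjusted one at r = 0.23. Over all 15102 bright probes outside the middle the plain r was 0.51 and the position-adjusted r -0.04. The adjustment subtracts these same running medians, so a lower r after it is built in. The correlations are across probes that share the same 6 arrays and neighboring spots, and carry no test.

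**Figure D4:**
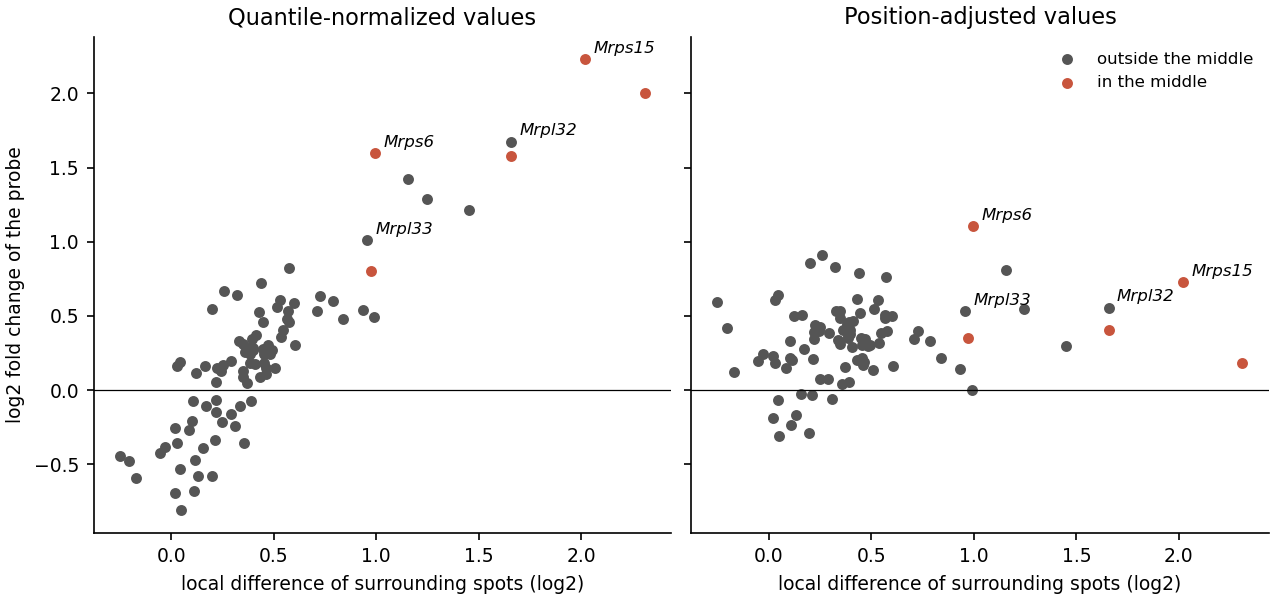
Log2 fold change of each member probe well above background on all arrays, against the local difference of the surrounding spots (both in log2), before (left) and after (right) position adjustment. Outside the middle the points rise along the local difference on the left (r = 0.85) and little on the right (r = 0.23). The adjustment subtracts the running medians that make up the local difference, so this drop is built in. Mrps6 stands above its neighbors in both panels.

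Copies of one probe at different places showed the size of this dependence directly, because they bind the same RNA. Mrpl34, a small protein of the large subunit, was printed 10 times outside the middle, and its copies ranged from -0.06 to 0.99 on plain values. The 7 copies above 0 had local differences of 0.49 or more, and the 3 below 0 had local differences of at most 0.31. Position-adjusted, all 10 copies were above 0, from 0.18 to 0.72 with a median of 0.30. Mrps35, of the small subunit, ranged from -0.51 to 0.11 over 10 copies and from -0.15 to 0.25 after adjustment. For Mrpl50, the 9 copies outside the middle ranged from -0.70 to 0.37, with 1 above 0, and the copy inside it read 1.40. After adjustment the 9 copies ranged from -0.35 to -0.03 and the inside copy was at 0.30. These single-copy values include spots marked as outliers by the scanner software. The inside Mrpl50 copy was marked on mock replicates 2 and 3, and the copy at 0.37 on mock replicate 3. Another outside Mrpl50 copy was marked on mock replicate 2, and an Mrpl34 copy below 0 on mock replicate 1. Unmarked values of the inside copy were 10.78 on mock replicate 1 against 11.32, 10.24 and 11.31 in 1G11-SOD3, which overlap.

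**Figure D5:**
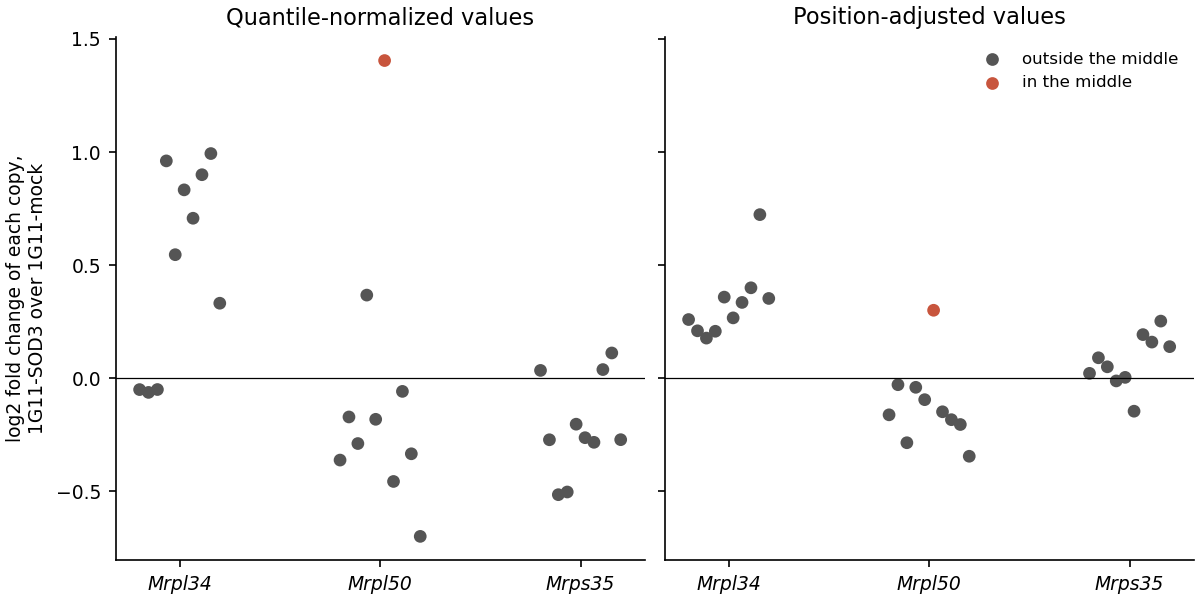
Log2 fold change of each of the 10 copies of the probes for Mrpl34, Mrpl50 and Mrps35, on plain (left) and position-adjusted (right) values. Copies of Mrpl34 run from -0.06 to 0.99 before and from 0.18 to 0.72 after adjustment, and the Mrpl50 copy in the middle stands apart at 1.40 before it. Spots marked as outliers are included here, among them that Mrpl50 copy on mock replicates 2 and 3.

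Different probes of one gene gave a like picture. For 18 genes with 2 probes outside the middle that both gave a fold change, which leaves out Mrpl41, the median difference between probes in log2 fold change was 0.29, and 6 genes had probes of opposite sign. The largest difference was 1.01, between the probes of Mrps14 (-0.47 and 0.54), which became 0.20 and 0.14 after adjustment. Over the 18 genes the median difference became 0.20, with 3 genes of opposite sign, and the largest remaining one was 0.82, for Mrps25.

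The 6 probes wholly in the middle were all higher on the SOD3 arrays without overlap, against 27.1% of all probes there and 58.9% of those well above background on all arrays, as 5 of the 6 were, and 3 were called, those of Mrps15, Mrps6 and Mrpl50. The background of calls there was high, 11.6% of all 6155 probes in the higher direction and 23.9% of the 1105 that were well above background on all arrays. After position adjustment 1 of the 6, Mrps6, was called, against 0.796% of all probes in the middle and 2.71% of those well above background on all arrays. The adjustment also turned many dim probes there downward (15.2% called lower), so values of dim probes in the middle are uncertain in either direction. Among the 6, this applies to the Mrpl50 probe, which was not well above background on all arrays.

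Mrps6, a protein of the small subunit platform with bacterial relatives, read 14.00, 14.20 and 13.48 in 1G11-mock and 15.79, 15.63 and 15.05 in 1G11-SOD3. All SOD3 arrays lay above all mock arrays. The log2 fold change was 1.60 ± 0.28 (SE, n = 3 per line, 3.03-fold, adjusted p = 0.0102 by limma). Position-adjusted it read 14.17, 14.29 and 13.95 against 15.39, 15.32 and 15.02, a difference of 1.11 ± 0.22 (SE, 2.15-fold, adjusted p = 0.0341 by limma) with a 95% interval from 0.60 to 1.61. The call on adjusted values was kept without mock replicate 3. It was lost without any one of the other 5 arrays (1.03 to 1.22, limma adjusted p up to 0.16). The call on plain values was lost without SOD3 replicate 1 and kept without any one of the other arrays. With the processed signal, which was not adjusted for position, Mrps6 was not called (1.04, adjusted p = 0.0782, limma). The spot lies at row 248 and column 105, near the corner of the middle, and reads chromosome 16 from 92112223 to 92112282 in the array annotation; no other probe of Mrps6 was on the array. The 150 bases before the start of Mrps6 on GRCm38.p6 (chr16:92058186-92058335, plus strand) are shown because it is the one member called on both kinds of values. They hold 4 copies of the GC box GGGCGG, in capitals, the first 2 of which share 1 base, a motif found in 49.3% of the 67 member windows and 35.9% of all promoters.
Mrps6: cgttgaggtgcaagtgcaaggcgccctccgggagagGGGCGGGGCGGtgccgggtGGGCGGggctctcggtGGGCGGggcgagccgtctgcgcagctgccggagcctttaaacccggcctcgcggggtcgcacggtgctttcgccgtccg

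Mrps15, a small subunit protein with bacterial relatives, read 11.31, 10.94 and 9.43 in 1G11-mock and 12.56, 12.76 and 13.05 in 1G11-SOD3, a log2 fold change of 2.23 ± 0.41 (SE, adjusted p = 0.0141 by limma). Position-adjusted the difference was 0.73 ± 0.25 (SE, adjusted p = 0.139 by limma), still without overlap. Mrpl13, a large subunit protein with bacterial relatives, had 1.58 (adjusted p = 0.0622, limma) and 0.41 after adjustment. With the replicate block, 5 of the 6 probes in the middle were called, all but that of Mrps26 (0.80, adjusted p = 0.0864 by limma with the block), against 16.1% of all probes there and 37.6% of those well above background on all arrays. Position-adjusted and with the block, Mrps6 was the one called, against 0.894% and 3.17%.

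For 3 genes a probe in the middle could be set against another outside it. Mrpl4, which lies near the exit tunnel, read 14.15, 13.81 and 11.80 against 15.71, 14.84 and 15.22 on the probe in the middle, a log2 fold change of 2.0 that missed the limit (adjusted p = 0.0617, limma). Its probe outside read 13.12, 13.72 and 14.38 against 12.38, 13.39 and 13.71, a log2 fold change of -0.58. Mrpl50 gave 1.35 in the middle (adjusted p = 0.0303, limma) and -0.27 on the probe printed 10 times. The Mrpl50 probe in the middle was not well above background on all arrays, so its values are uncertain. Mrps26 gave 0.80 in the middle and -0.07 outside. After position adjustment these became 0.18 and -0.29 for Mrpl4, 0.02 and -0.21 for Mrpl50, and 0.35 and 0.05 for Mrps26, so the gap between probes narrowed in each gene.

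Genes of mitochondrial translation outside the Mrpl and Mrps symbols gave few calls. For 6 ribosomal subunits with other symbols, none of 7 probes outside the middle was called on plain or position-adjusted values. Of all probes outside, 0.644% were called higher and 1.18% lower on plain values, and 1.01% and 0.63% after adjustment. The 6 of these 7 probes well above background on all arrays had a plain median of -0.08, with 2 above 0. After adjustment their median was 0.20, with 4 above 0. Member probes of this kind had medians of 0.18 and 0.34, and all such probes outside -0.17 and 0.07. Dap3, a GTP-binding protein of the small subunit, had -0.36 and -0.02, and Ptcd3 -0.25. Ict1, a peptidyl-tRNA hydrolase that is also part of the large subunit, read 14.67, 14.39 and 14.25 in 1G11-mock and 15.46, 15.17 and 15.35 in 1G11-SOD3, a difference of 0.89 ± 0.23 (SE, adjusted p = 0.0616 by limma) and of 0.81 after adjustment. The 2 probes of Gadd45gip1 had 0.22 and, on a probe at background, no fold change, and Aurkaip1 had -0.14 outside the middle and 0.87 inside it. Chchd1, whose one probe lies in the middle, read 13.95, 12.37 and 10.18 against 15.51, 15.11 and 15.23, a difference of 3.11 (adjusted p = 0.0338, limma) that was 1.2 after adjustment (adjusted p = 0.086, limma). On plain values 11.6% of all probes in the middle were called higher, and 23.9% of those well above background on all arrays.

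Other genes that serve mitochondrial translation had no call outside the middle. Lists this short would hold few calls at the shares over all probes outside, 0.644% higher and 1.18% lower on plain values. After adjustment the shares were 1.01% and 0.63%. None of 11 probes for translation factors, 19 for mitochondrial aminoacyl-tRNA synthetases, 18 for assembly and rRNA modification and 7 for mitochondrial transcription and RNA supply was called in either direction on plain or adjusted values. The medians of those well above background on all arrays were -0.16, 0.25, -0.10 and 0.05 on plain values and 0.14, 0.26, 0.10 and 0.36 after adjustment, against -0.17 and 0.07 for all bright probes outside. The called probes of these lists lay in the middle: Tufm, the elongation factor that brings aminoacyl-tRNA to the ribosome (2.48, adjusted p = 0.0406, limma), and Ftsj2, an rRNA methyltransferase (1.92, adjusted p = 0.0146, limma). Position-adjusted they had 0.96 and 0.28 and were not called. The Ftsj2 probe was well above background on 1 mock array and all SOD3 arrays, so its values are uncertain. Of all probes in the middle, 11.6% were called higher on plain values and 0.796% after adjustment.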

How the data were processed

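Total RNA of 3 cultures each of 1G11-mock and 1G11-SOD3 cells was labeled with Cy3 and hybridized to 6 Agilent SurePrint Mouse G3 arrays. For each array the authors deposited the spot intensity values of Agilent Feature Extraction 10.7.3.1, with local background and quality marks, not normalized between arrays. A table of log2 values deposited by the authors, corrected by normexp with an offset of 50 and quantile normalized, served here as an alternative. The groups are those of the sample labels.

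Mean spot intensities were corrected with normexp (offset 50, local background median), taken to log2 and quantile normalized over non-control spots with limma 3.58.1 in R 4.3.3. Outlier spots, as the scanner software marks them, were dropped (5 values of member spots), and copies of a probe were averaged. Where single copies of a probe are given, the marked values were kept. The lines were compared by limma with Benjamini-Hochberg adjustment over 55681 probes. For position adjustment, the running median of each array's deviation from the mean of all arrays, over 12 rows and 6 columns each way and spots above 9 in log2, was subtracted before normalization; probes printed 10 times were held out of it. The fits were also run on simulated data with less spread than these data. For position adjustment the simulation dimmed the middle alone, evenly on the mock arrays. These runs do not show how well the adjustment works on these arrays.

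The members and gene lists were chosen with earlier results of these data known. Named are called probes outside the middle, the 5 highest and 5 lowest there without overlap, genes with probes in both places, landmark subunits, subunits under other symbols and Sod3. Samples with the same replicate number deviated together (r of 0.20, 0.14 and 0.14 on plain values; 0.10, 0.14 and 0.24 position-adjusted), so the number was also used as a block; the pairing comes from the numbers in the sample titles. All arrays lay on 1 slide. P-values measure the spread among the 3 arrays of each line. All 98 member probes matched the RefSeq table by accession and symbol. Promoters are RefSeq sequences on GRCm38.p6. Figures were drawn with matplotlib 3.10.9 in Python 3.11.15 from tables made with pandas 2.3.3 (numpy 2.4.6). The number of arrays limits the precision of every difference.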

Additional observations from a re-analysis of the deposited data

How the results depend on the processing

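The lean of members toward higher values in 1G11-SOD3 kept its direction under each alternative, with medians outside the middle from 0.09 to 0.26 when 1 array was left out. It moved to 0.35 with the processed signal, 0.34 with scaling to the 75th percentile, 0.31 with the middle left out before normalization and 0.34 with position adjustment, with or without the replicate block. The processed signal shifted the median of all probes by -0.49, the scaling by -0.30 and position adjustment by 0.11. Over all probes, 63.8% of calls were higher on plain values, 10.8% with the processed signal, 30.7% with position adjustment and 53.6% with the middle left out before normalization.

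Probes called higher outside the middle, 2 on plain values, numbered 1 without background correction, 3 in the deposited table and 3 with dim probes left out (Mrpl36 was added in both), 5 with scaling to the 75th percentile, 5 with the replicate block, 0 with position adjustment and 0 to 4 with 1 array left out. With the processed signal 1 probe, Mrpl21, was called lower. Calls over all probes, in the middle and outside, changed as well. Probes called higher numbered 1040 on plain values, 655 without background correction, 1021 in the deposited table and 1160 with dim probes left out. They numbered 1200 with the processed signal, 1516 with the 75th percentile, 1452 with the block and 553 with position adjustment. With 1 array left out they numbered from 484 to 1277. In the middle, 3 calls became 4 with dim probes left out (Mrpl13 was added), 1 with the processed signal, 5 with scaling to the 75th percentile, 5 with the replicate block, 1 with position adjustment and 1 to 5 with 1 array left out. On position-adjusted values with 1 array left out, a setting added after seeing the data, calls numbered 0 to 1 outside (Mrpl22, without mock replicate 3) and 0 to 1 in the middle, and medians outside ranged from 0.30 to 0.39 (0.32 without SOD3 replicate 1). The replicate block changed no other call of a named probe. The cause of these changes was not tested.

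Signs that turned belonged to probes that were not called, apart from Mrpl50 in the middle (-0.055 without mock replicate 1, -0.12 without mock replicate 2 and -0.0010 without SOD3 replicate 3, up to 0.23, on position-adjusted values). With the processed signal these were Mrpl43 (0.14), Mrpl35 (0.27), Mrpl38 (0.19), Mrpl10 (0.23), Mrpl44 (0.37), Ptcd3 (0.33), Dap3 (0.34 and 0.55) and Mrps26 (0.35). With scaling to the 75th percentile they were Mrpl44 (0.083), Dap3 (0.15) and Mrps26 (0.094), and with the middle left out before normalization Mrpl44 (0.064), Dap3 (0.091) and Mrps26 (0.040). With position adjustment they were Mrps14 (0.20), Mrpl35 (0.42), Mrpl38 (0.12), Mrpl10 (0.22), Mrpl44 (0.28), Dap3 (0.16 and 0.24), Mrps26 (0.052) and Aurkaip1 in the middle (-0.43). With 1 array left out, Mrpl12 ranged from -0.017 to 0.42, Mrpl10 from -0.42 to 0.11, Mrpl44 from -0.22 to 0.057, 1 probe of Dap3 from -0.078 to 0.080 and Mrps26 from -0.30 to 0.21. The slide could not be used as a block, since there was 1 slide. Signal over background limits Mrpl21 and 1 probe of Mrpl41.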
